A study of Homo sapiens with 24 samples.

Results

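The 14-3-3 genes of the nCounter Virtual Cell Cycle Gene Set were followed across siRNA knockdowns of CARLo transcripts, long non-coding RNAs encoded at 8q24.21. They were taken as the endogenous probes named SFN, YWHAB, YWHAE, YWHAG, YWHAH, YWHAQ and YWHAZ, which gave 7 of the 189 endogenous genes on the panel. The series held 24 libraries of total RNA, 3 in each of 8 groups. HCT116, an established line from a colorectal cancer, was transfected with siCARLo-7 v2, siCARLo-5, siCARLo-4, siCARLo-3 or siCARLo-1 v3, or with the control siRNA siCTRL, at 50 nM. PC3, an established line from a prostate cancer, received siCARLo-1 v2&4 or siCTRL at 100 nM. Every group, the controls included, was transfected with Lipofectamine RNAiMAX, and RNA was extracted with TRIZOL. Neither the labels nor the files give the time of harvest. The labels number 3 libraries in each group without saying that they came from separate cultures, so the p-values measure only the spread between these libraries, which may be technical. The panel had no probe for a CARLo transcript, so knockdown could not be checked from these data.

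The 14-3-3 proteins are small dimeric adaptors that bind other proteins at phosphorylated serine or threonine. They hold many cell cycle regulators in the cytoplasm or change their activity, among them the CDC25 phosphatases. SFN encodes 14-3-3 sigma, an epithelial isoform induced after DNA damage, which helps to hold cyclin B1 and CDK1 outside the nucleus and so to maintain a G2 arrest. YWHAB, YWHAE, YWHAG, YWHAH, YWHAQ and YWHAZ encode the beta, epsilon, gamma, eta, theta and zeta isoforms, which are expressed in most tissues and form dimers with one another.

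The nCounter assay counts barcoded probes bound to RNA without amplification. Libraries deposited as raw counts held 55893 to 236508 endogenous counts. All 7 genes of the family lay above background, set at 2 SD over the negative probes' mean, in 24 of 24 libraries, and the lowest ratio to background was 4.35, for YWHAB. Values below are TMM-normalized counts, which place the libraries of 1 line on a common scale; for PC3 they are called values, since the siCARLo-1 v2&4 table was deposited already scaled. In these bulk samples a change in every cell and a change in a share of the cells cannot be told apart. Probes differ in capture efficiency, so counts of different genes do not rank their RNA levels. Ratios of genes within a library are therefore compared only between groups. Of the listed line markers, the epithelial marker CDH1 had 1221 to 1240 deposited counts in PC3 siCTRL libraries. HCT116 siCTRL libraries had 120 to 152, and all HCT116 libraries 83 to 367. The mesenchymal marker TWIST1 had 38 to 50 deposited counts in PC3 siCTRL, above background in 3 of 3 libraries. In HCT116 it had 0 to 6, above background in 0 of 18 libraries. In the scaled PC3 siCARLo-1 v2&4 table the values of CDH1 and TWIST1 were 864 to 1119 and 9 to 12. The marker counts were not normalized for depth, and endogenous totals were 216562 to 236508 in PC3 siCTRL and 89835 to 130777 in HCT116 siCTRL. Replicate 3 of siCARLo-1 v3 stood apart from replicates 1 and 2 across the panel, with a chi-square per degree of freedom of 50.2 to 56.2, against 1.18 to 4.46 for the other replicate pairs of the groups with raw counts. The positive control sums in the series-wide table fell into 4 sets, and no siCARLo group shared a set with its own siCTRL group, so against siCTRL the effects of set and of knockdown cannot be told apart.

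The sequences just upstream of SFN, YWHAB and YWHAH are shown because these 3 genes had the widest spread of levels between the siCARLo groups. Each is the 250 bases before the annotated start in RefSeq, build GRCh38.p14, read 5′ to 3′ on the gene's strand. Capitals mark matches on either strand to the GC box GGGCGG, the CCAAT box CCAAT, the cyclic AMP response element TGACGTCA or the TATA sequence TATAAA.
SFN, chr1:26862899-26863148, plus strand: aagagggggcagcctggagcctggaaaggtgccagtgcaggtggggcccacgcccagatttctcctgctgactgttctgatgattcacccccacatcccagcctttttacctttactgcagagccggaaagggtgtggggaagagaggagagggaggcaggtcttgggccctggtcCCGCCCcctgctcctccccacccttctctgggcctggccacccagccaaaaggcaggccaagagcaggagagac
YWHAB, chr20:44885455-44885704, plus strand: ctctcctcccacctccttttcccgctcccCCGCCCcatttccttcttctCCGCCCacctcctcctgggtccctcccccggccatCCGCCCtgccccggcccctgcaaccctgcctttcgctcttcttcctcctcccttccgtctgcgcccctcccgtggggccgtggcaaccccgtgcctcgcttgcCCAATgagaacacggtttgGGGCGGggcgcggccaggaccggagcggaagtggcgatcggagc
YWHAH, chr22:31944285-31944534, plus strand: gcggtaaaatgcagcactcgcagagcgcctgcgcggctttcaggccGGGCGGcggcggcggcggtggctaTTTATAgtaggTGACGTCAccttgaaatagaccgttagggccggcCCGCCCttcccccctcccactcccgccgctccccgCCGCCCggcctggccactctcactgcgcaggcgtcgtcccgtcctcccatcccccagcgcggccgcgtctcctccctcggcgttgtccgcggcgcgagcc

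SFN stood apart from the YWHA genes in base composition. Its window held 3 CG dinucleotides, more than 22.9% of the 35114 promoters in the table, whereas the windows of YWHAB, YWHAE, YWHAG, YWHAH and YWHAQ held 21, 29, 23, 34 and 28. The table matched 6 of the 7 genes, YWHAZ being the other. A GC box was found in all 6 windows and in 42.6% of all promoters of the same length. The response element TGACGTCA was found in YWHAH, and in 1.65% of all promoters. A CCAAT box was found in YWHAB and YWHAQ, and in 32% of all promoters, and TATAAA in YWHAH and in 10.7%. No overlaps between motifs occurred in the windows printed, and these matches describe letters in a window, not binding.

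SFN was higher in all 5 siCARLo groups of HCT116 than in siCTRL, and siCARLo-7 v2 stood far above the others. SFN had 2328, 2536 and 2398 normalized counts in the siCARLo-7 v2 libraries, against 542, 524 and 579 in the siCTRL libraries. The groups averaged 2421 ± 106 and 548 ± 28.2 (SD, n = 3 each). The siCARLo-7 v2 libraries exceeded every other HCT116 library, and the increase over siCTRL was 4.42-fold, a log2 fold change of 2.14 ± 0.08 (SE, adjusted p = 3.84e-13, edgeR). This was the largest change of any of the 178 genes tested in that comparison.

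The other siCARLo groups had smaller increases in SFN. The siCARLo-1 v3 libraries had 1096, 1155 and 1137 counts, and the siCARLo-5 libraries had 1039, 1245 and 1143. These groups overlapped, and their fold changes over siCTRL were 1.04 ± 0.08 and 1.06 ± 0.08 on the log2 scale (SE, adjusted p = 1.36e-08 and 7.58e-09, edgeR). The siCARLo-3 libraries had 843, 1045 and 844 counts, and the siCARLo-4 libraries had 786, 827 and 801. Their log2 fold changes were 0.74 ± 0.08 and 0.56 ± 0.08 (SE, adjusted p = 9.68e-07 and 7.14e-05, edgeR). The lowest siCARLo library, at 786, still lay above the highest siCTRL library, at 579. With library sizes taken from the positive controls, the siCARLo-3 change was 0.10 (adjusted p = 0.51), so that call depended on the scaling. Without replicate 3 of siCARLo-1 v3, the change in that group was 1.04.

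**Figure D1:**
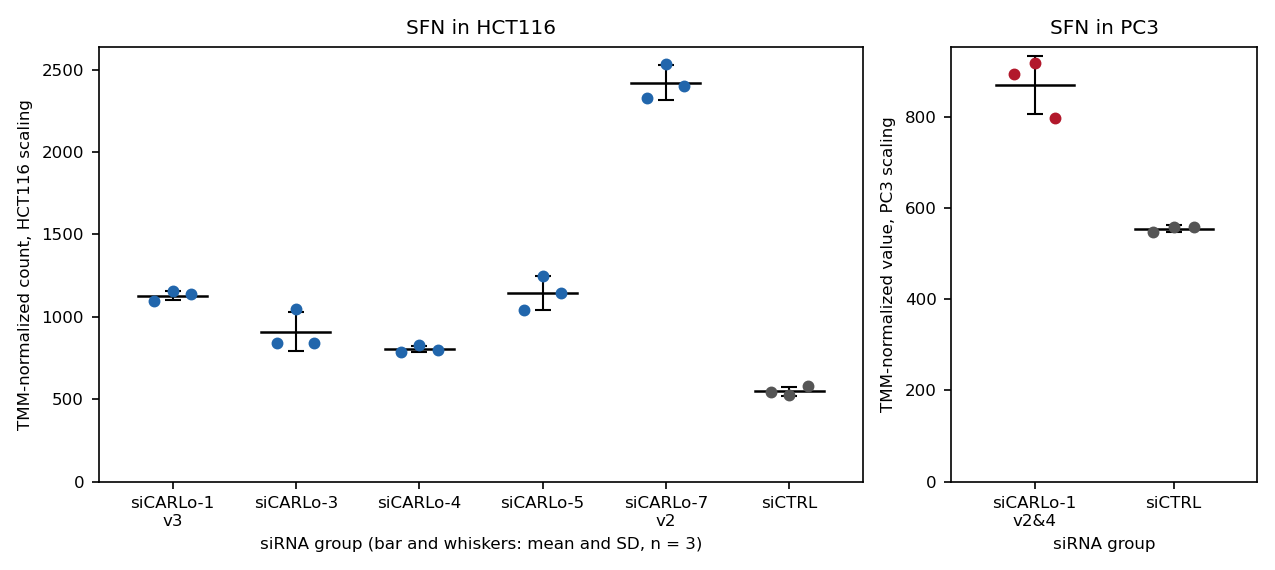
SFN level in each library, as TMM-normalized counts in HCT116 (left) and PC3 (right), by siRNA group on the horizontal axis. Points are libraries, and bars with whiskers are the mean and SD of 3. The siCARLo-7 v2 libraries sit between 2328 and 2536, above all others in HCT116, and the siCTRL libraries sit lowest in both lines; the scales of the panels are separate.

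Ordered by mean SFN level, the HCT116 groups ran siCARLo-7 v2, siCARLo-5, siCARLo-1 v3, siCARLo-3, siCARLo-4 and siCTRL. Neighbours in this order differed in 3 of 5 steps. SFN in siCARLo-5 exceeded that in siCARLo-1 v3 by 0.02 on the log2 scale (adjusted p = 0.87, edgeR), and that in siCARLo-3 exceeded siCARLo-4 by 0.18 (adjusted p = 0.077, edgeR), and neither step passed the test. The sign of that step turned with positive control scaling, where siCARLo-4 minus siCARLo-3 was 0.26 and did not pass the test either (adjusted p = 0.099). Over the TMM, DESeq2, reference gene and positive control scalings that difference ran from -0.22 to 0.26 and was called in 1 of 4.

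The ratio of SFN to its YWHA relatives within a library needs no scaling between libraries. In HCT116 there were 17.3 ± 0.76 SFN counts per 100 counts of the 6 YWHA genes in siCARLo-7 v2, 10.4 ± 0.37 in siCARLo-1 v3, 7.69 ± 0.74 in siCARLo-5, 6.49 ± 0.77 in siCARLo-3 and 6.45 ± 0.26 in siCARLo-4, against 4.73 ± 0.30 in siCTRL (SD, n = 3 each). The lowest siCARLo library had 5.96 and the highest siCTRL library 5.05, so the groups did not overlap. The ratio placed siCARLo-1 v3 above siCARLo-5, whose SFN levels overlapped. The family as a whole made up 14.7% of all endogenous counts in siCARLo-7 v2 and 10.4% in siCTRL.

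**Figure D2:**
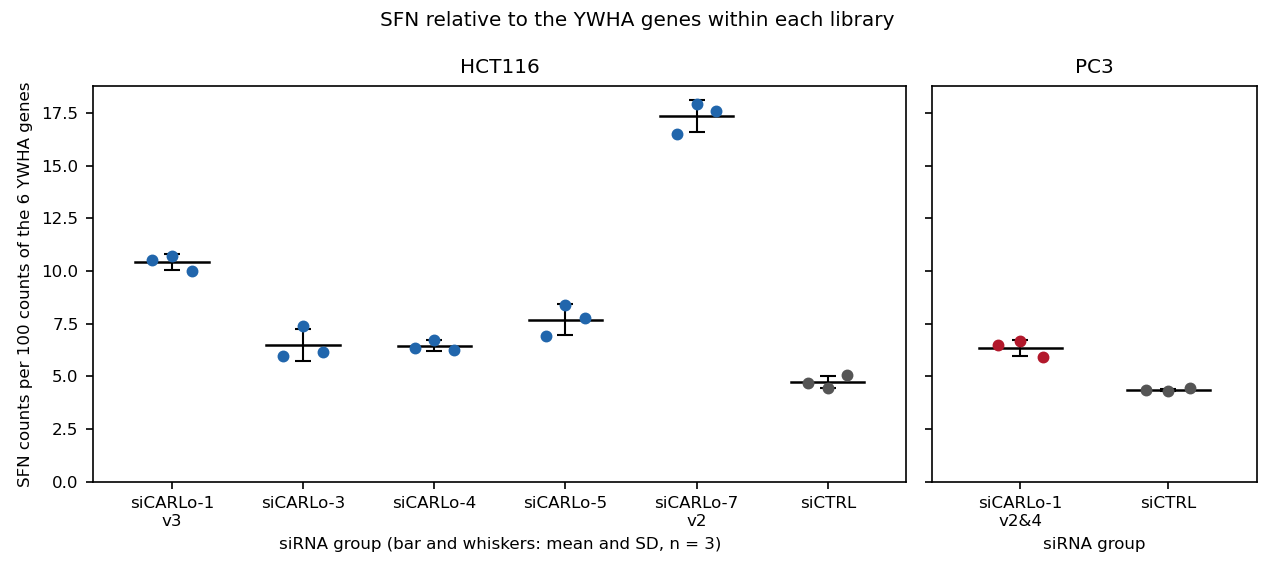
SFN counts per 100 counts of the 6 YWHA genes in the same library, by siRNA group, in HCT116 (left) and PC3 (right). Points are libraries, and bars with whiskers are the mean and SD of 3; every siCARLo library lies above every siCTRL library of its line.

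The siCARLo-7 v2 libraries also differed in their spiked controls. The ratio of the strongest to the next positive control probe was 2.88 to 2.91 in siCARLo-7 v2, 2.15 to 2.81 in the other HCT116 siCARLo libraries and 1.91 to 2.18 in siCTRL. Its part in the SFN result was not tested. The SFN increase in siCARLo-7 v2 was 2.07 on the log2 scale with positive control scaling, and siCARLo-7 v2 exceeded siCARLo-5, which lay in the same positive control set, by 1.08 (adjusted p = 7.24e-09, edgeR).

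YWHAB and YWHAE varied together across the HCT116 groups. YWHAB was the least counted of the 7 genes, with 72 to 213 deposited counts per HCT116 library. It had 202, 219 and 206 normalized counts in siCARLo-3, 136, 154 and 153 in siCARLo-5, and 147, 172 and 150 in siCARLo-7 v2, against 101, 99.3 and 92.6 in siCTRL. All libraries of these 3 groups lay above all siCTRL libraries, and the log2 fold changes were 1.10 ± 0.11, 0.60 ± 0.11 and 0.68 ± 0.11 (SE, adjusted p = 2.72e-07, 0.000166 and 7.99e-05, edgeR). In siCARLo-1 v3 and siCARLo-4 the libraries had 82.1 to 108 and 92.1 to 104 counts, which overlapped siCTRL, with log2 fold changes of -0.08 and 0.02 that did not pass the test. With positive control scaling the siCARLo-5 change was 0.19 (adjusted p = 0.35).

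YWHAE, which encodes an isoform known to bind CDC25 phosphatases, moved in both directions. It had 4412, 4353 and 4526 counts in siCARLo-3 and 3785, 3868 and 4139 in siCARLo-5, against 2858, 2843 and 2920 in siCTRL. These were increases of 0.62 ± 0.06 and 0.45 ± 0.06 on the log2 scale (SE, adjusted p = 6.11e-08 and 3.75e-06, edgeR). With positive control scaling these were 0.01 and 0.03 and were not called. In siCARLo-1 v3 and siCARLo-4 the libraries had 2134 to 2283 and 2194 to 2337 counts, all below siCTRL. YWHAE fell there by 0.39 ± 0.06 and 0.33 ± 0.06 on the log2 scale (SE, adjusted p = 2.72e-05 and 0.000185, edgeR). The decrease in siCARLo-1 v3 was not called when the libraries were scaled by 6 reference genes, at -0.26. In siCARLo-7 v2 the change was 0.15 (adjusted p = 0.045, edgeR), and it did not pass the test in 5 of the 6 fits that left out 1 library of these groups (adjusted p from 0.033 to 0.14 over the 6), nor with positive control or reference gene scaling.

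YWHAH had its own pattern. It had 403, 387 and 392 counts in siCARLo-3 and 923, 896 and 915 in siCARLo-4, against 637, 687 and 742 in siCTRL. All siCARLo-3 libraries lay below and all siCARLo-4 libraries above the siCTRL range. YWHAH fell in siCARLo-3 by 0.81 ± 0.09 and rose in siCARLo-4 by 0.41 ± 0.08 on the log2 scale (SE, adjusted p = 3.27e-07 and 0.000614, edgeR). The siCARLo-4 increase was 0.21 and not called with positive control scaling. The log2 fold changes in siCARLo-1 v3, siCARLo-5 and siCARLo-7 v2 were -0.19, -0.13 and -0.03, and none passed the test. Over the TMM, DESeq2, reference gene and positive control scalings the siCARLo-5 value ran from -0.56 to -0.11 and was called in 1 of 4. With 1 library left out, the siCARLo-1 v3 change had an adjusted p from 0.033 to 0.31 (edgeR).

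YWHAG rose in siCARLo-5 and fell in siCARLo-3. It had 2210 to 2241 counts in siCARLo-5 and 1058 to 1407 in siCARLo-3, against 1551 to 1741 in siCTRL, with no overlap on either side. The log2 fold changes were 0.43 ± 0.08 and -0.43 ± 0.08 (SE, adjusted p = 0.000209 and 0.000277, edgeR). With positive control scaling the siCARLo-5 change was 0.02 and was not called, and the siCARLo-3 change was -1.06. In the other 3 groups the log2 fold changes were 0.01, -0.18 and -0.05 for siCARLo-1 v3, siCARLo-4 and siCARLo-7 v2, and none passed the test. The siCARLo-4 value ran from -0.37 to -0.18 over the TMM, DESeq2, reference gene and positive control scalings and was called in 1 of 4.

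YWHAQ and YWHAZ had small increases in the same 4 groups. YWHAQ had 2412 to 2548 counts in siCARLo-5, 2133 to 2290 in siCARLo-7 v2, 2018 to 2136 in siCARLo-3 and 1969 to 2089 in siCARLo-4, against 1697 to 1748 in siCTRL, and the log2 fold changes were 0.53, 0.37, 0.28 and 0.23. YWHAZ, a gene on chromosome 8, had 5998 to 6306 counts in siCARLo-7 v2, 5519 to 5957 in siCARLo-4, 5549 to 5822 in siCARLo-3 and 5060 to 5705 in siCARLo-5, against 4398 to 4656 in siCTRL, and the log2 fold changes were 0.43, 0.33, 0.32 and 0.25. All 8 changes passed the test. These increases depended on scaling: with positive controls, siCARLo-3 gave -0.34 for YWHAQ and -0.30 for YWHAZ, and siCARLo-5 gave -0.16 for YWHAZ. Of the other 5 changes, that of YWHAZ in siCARLo-7 v2 was still called with positive controls. YWHAQ in siCARLo-7 v2, siCARLo-5 and siCARLo-4, at 0.29, 0.11 and 0.034, and YWHAZ in siCARLo-4, at 0.14, were not. In siCARLo-1 v3 the log2 fold changes were 0.10 and -0.03, and neither passed the test. That of YWHAQ ran from -0.08 to 0.24 over the TMM, DESeq2, reference gene and positive control scalings and was called in 1 of 4. YWHAZ in that group was -0.13 (adjusted p = 0.039) without replicate 3, whose YWHAZ level was 5037 against 4089 and 4236 in the other two libraries.

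**Figure D3:**
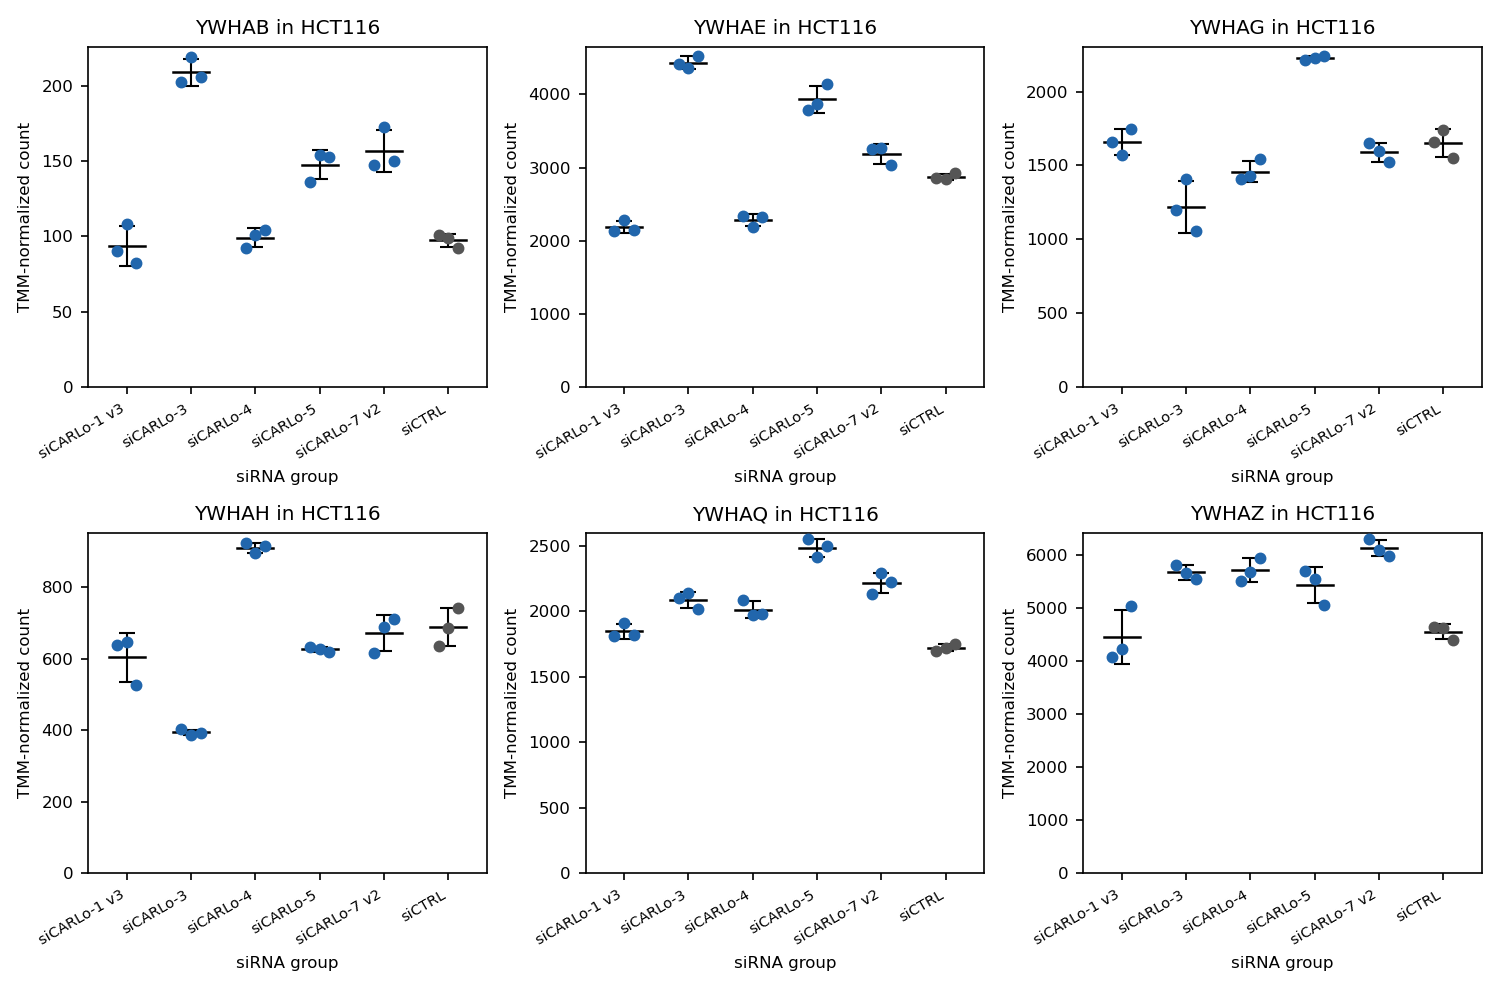
TMM-normalized counts of the 6 YWHA genes in each HCT116 library, by siRNA group, with 1 panel and 1 linear axis per gene. Points are libraries, and bars with whiskers are the mean and SD of 3. YWHAB and YWHAE are highest in siCARLo-3, where YWHAH is lowest.

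Counted over the family, 7 of 7 genes changed in siCARLo-3, where 52.2% of the genes tested on the panel were called. The corresponding counts were 6 of 7 in siCARLo-5 (55.1% of the panel), 5 of 7 in siCARLo-7 v2 (37.1%), 5 of 7 in siCARLo-4 (35.4%) and 2 of 7 in siCARLo-1 v3 (41%). The median log2 fold change of the 7 genes was 0.32 in siCARLo-3, 0.45 in siCARLo-5, 0.37 in siCARLo-7 v2, 0.23 in siCARLo-4 and -0.03 in siCARLo-1 v3, against medians of 0.0034, 0.047, 0.025, -0.0036 and 0.016 over all genes tested. With positive control scaling the medians over all genes were -0.61 in siCARLo-3, -0.36 in siCARLo-5, -0.047 in siCARLo-7 v2, -0.18 in siCARLo-4 and -0.16 in siCARLo-1 v3. The 5 comparisons share the same 3 siCTRL libraries. Replicates 1 and 2 of siCTRL differed by little more than counting noise (chi-square test over genes, p = 0.0495).

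**Figure D4:**
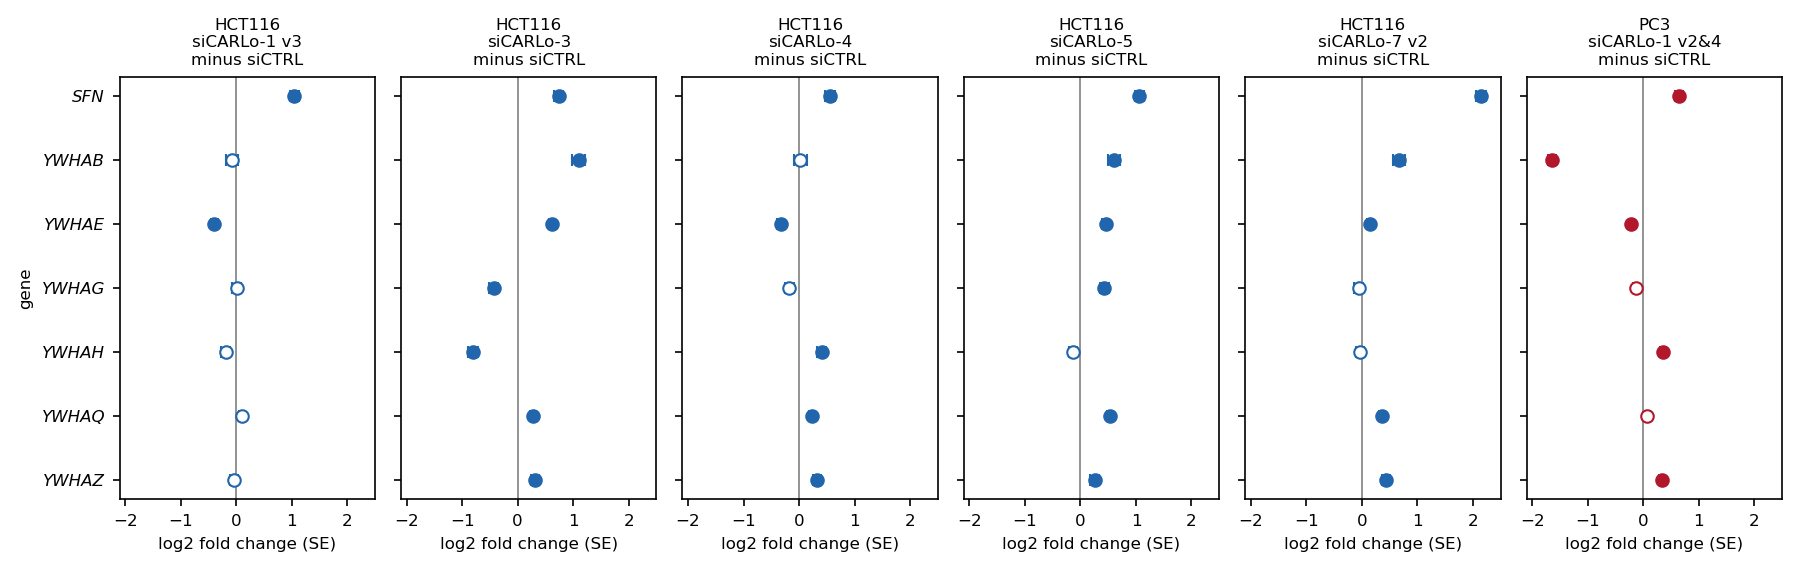
Log2 fold change of each 14-3-3 gene in each siCARLo group over siCTRL of the same line, with SE as whiskers. Filled points passed an adjusted p of 0.05 and open points did not; with this TMM scaling SFN lies right of 0 in all 6 panels (in PC3 it was -0.22 with positive control scaling), and YWHAB lies farthest left in PC3, at -1.64.

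The siCARLo groups were also compared with each other, which leaves out the shared controls. Across the 5 HCT116 siCARLo groups, an F test called 7 of 7 genes, where 86.5% of the panel was called. The largest difference between any pair of groups was 1.59 for SFN, 1.21 for YWHAH, 1.17 for YWHAB, 1.02 for YWHAE, 0.86 for YWHAG, 0.46 for YWHAZ and 0.43 for YWHAQ, on the log2 scale. The groups behind the YWHAH, YWHAB and YWHAE values shared a positive control set. Those behind the SFN, YWHAG, YWHAZ and YWHAQ values did not, so there set and siRNA cannot be told apart, and YWHAQ was not called when scaled by the reference genes (adjusted p = 0.055). The 4 comparisons that follow are each within 1 set.

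All 7 genes differed between siCARLo-3 and siCARLo-1 v3, with 55.1% of the panel called. YWHAB was 1.17 ± 0.11 and YWHAE 1.02 ± 0.06 higher in siCARLo-3 on the log2 scale, and SFN was lower by 0.30 ± 0.08, YWHAG by 0.44 ± 0.08 and YWHAH by 0.62 ± 0.09 (SE, adjusted p from 9.08e-11 to 0.00508, edgeR). YWHAQ and YWHAZ were 0.18 and 0.35 higher in siCARLo-3, but -0.26 and -0.07 with positive control scaling.

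Between siCARLo-4 and siCARLo-3, 4 of 7 genes differed, with 43.8% of the panel called. YWHAB was lower in siCARLo-4 by 1.07 ± 0.11 and YWHAE by 0.96 ± 0.06, and YWHAH was higher by 1.21 ± 0.08 (SE, log2 scale, adjusted p from 9.42e-11 to 1.60e-07, edgeR). YWHAG was higher by 0.25 (adjusted p = 0.018, edgeR), a call lost when siCARLo-3 replicate 1, siCARLo-3 replicate 3 or siCARLo-4 replicate 3 was left out. SFN was lower in siCARLo-4 by 0.18 (adjusted p = 0.077), and passed the test without siCARLo-3 replicate 1 or without replicate 3.

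Between siCARLo-4 and siCARLo-1 v3, 3 of 7 genes differed, with 45.5% of the panel called. SFN was lower in siCARLo-4, at -0.49 ± 0.08, and YWHAH and YWHAZ were higher, at 0.59 ± 0.08 and 0.36 ± 0.07 (SE, log2 scale, adjusted p from 9.64e-06 to 0.00063, edgeR). YWHAB, at 0.10, and YWHAE, at 0.06, did not pass the test. Without replicate 2 of siCARLo-1 v3, 5 genes were called, YWHAG and YWHAQ in addition.

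Between siCARLo-7 v2 and siCARLo-5, 4 of 7 genes differed, with 52.2% of the panel called. SFN was higher in siCARLo-7 v2 by 1.08 ± 0.08, whereas YWHAE was lower by 0.30 ± 0.06, YWHAG by 0.49 ± 0.08 and YWHAQ by 0.17 ± 0.05 (SE, log2 scale, adjusted p from 7.24e-09 to 0.012, edgeR). YWHAE and YWHAQ did not keep that direction with positive control scaling, at 0.04 and 0.18, and YWHAG was -0.14 and not called. YWHAB, at 0.08, YWHAH, at 0.10, and YWHAZ, at 0.17, did not pass the test. Over the TMM, DESeq2, reference gene and positive control scalings they reached 0.42, 0.45 and 0.52. They were called in 1, 1 and 2 of these 4 scalings.

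In PC3, YWHAB was lower after siCARLo-1 v2&4, and SFN was higher with TMM scaling, a direction that did not hold with positive control scaling. YWHAB had 107, 88.4 and 95.9 normalized values in the siCARLo-1 v2&4 libraries, against 303, 297 and 312 in the siCTRL libraries. The groups were far apart, 3.12-fold, with a log2 fold change of -1.64 ± 0.08 (SE, adjusted p = 5.15e-06, limma). YWHAB also fell relative to YWHAZ, to 1.42 ± 0.13 per 100 of YWHAZ, against 5.63 ± 0.26 in siCTRL (SD, n = 3 each). YWHAZ was itself called higher in this comparison with TMM scaling, by 0.34 on the log2 scale.

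SFN had 894, 919 and 798 values in the siCARLo-1 v2&4 libraries, against 547, 559 and 559 in the siCTRL libraries. The groups did not overlap, and the log2 fold change was 0.65 ± 0.07 (SE, adjusted p = 0.000164, limma). SFN per 100 YWHA counts was 6.36 ± 0.39 and 4.36 ± 0.06 in these groups (SD, n = 3 each). YWHAH and YWHAZ were higher by 0.35 ± 0.05 and 0.34 ± 0.05, and YWHAE was lower by 0.21 ± 0.05 (SE, log2 scale, adjusted p = 0.000624, 0.000684 and 0.010, limma). YWHAG, at -0.13, and YWHAQ, at 0.08, did not pass the test. In all, 5 of 7 genes were called, with 76% of the panel called.

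The PC3 directions other than that of YWHAB rested on the scaling. Endogenous counts per positive control count were 5.63 to 6.29 in siCARLo-1 v2&4 and 9.45 to 11.3 in siCTRL. With positive control scaling the median of all genes was -0.77, and SFN was -0.22, YWHAH -0.52 and YWHAZ -0.53 on the log2 scale. With the series-wide values as deposited the median was -1.07, and these genes were -0.52, -0.81 and -0.82. YWHAE was 0.04 when scaled by the 6 reference genes. YWHAB was -1.40 with the reference genes, -2.50 with positive controls and -2.79 with the series-wide values.

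**Figure D5:**
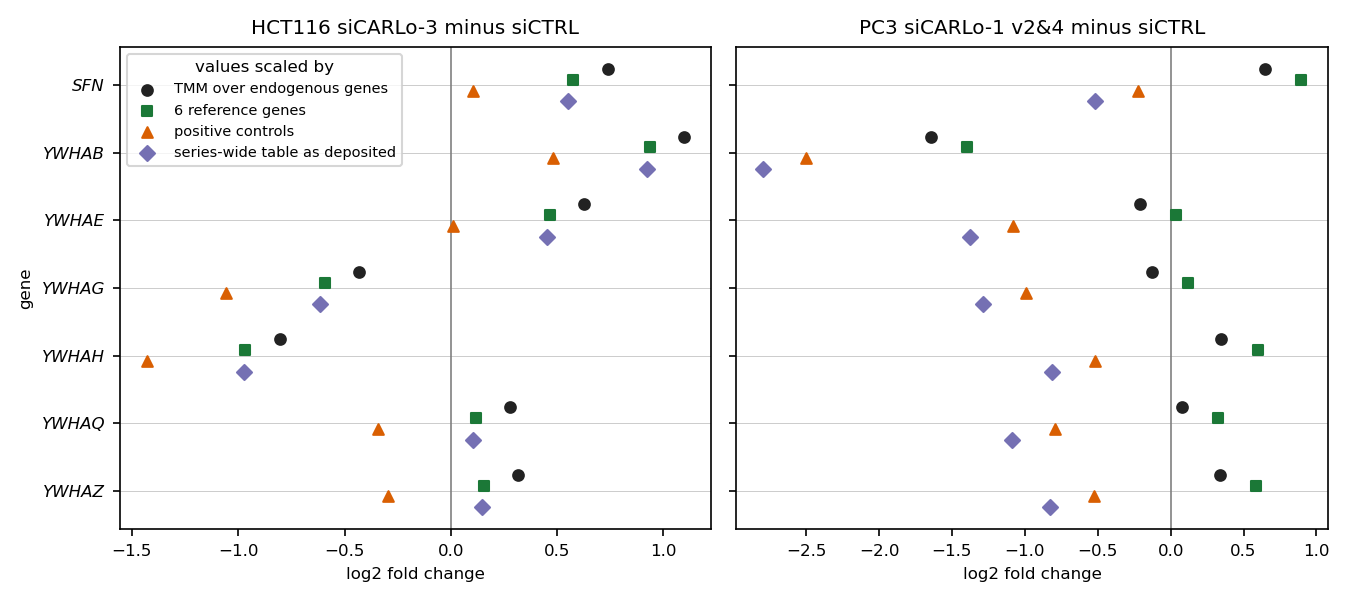
Log2 fold changes over siCTRL of the 7 genes in HCT116 siCARLo-3 (left) and PC3 siCARLo-1 v2&4 (right) under 4 scalings, each with its own marker. Changes of scaling move the 7 genes together; in PC3 YWHAB stays between -2.79 and -1.40, and SFN lies between -0.52 and 0.89.

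The siCARLo-1 siRNAs in HCT116 and PC3 differed in version and dose, so their effects are set side by side. SFN changed by 1.04 in HCT116 and 0.65 in PC3, YWHAB by -0.08 and -1.64, YWHAH by -0.19 and 0.35, and YWHAZ by -0.03 and 0.34, on the log2 scale. Each line had its own fit and scaling, so these values do not subtract to give the contrast that follows. An interaction contrast over all 24 libraries called SFN, YWHAB, YWHAH and YWHAZ, 4 of 7 genes, as differing between the lines, with 55.4% of the panel called. The difference was 1.67 ± 0.14 for YWHAB (SE, adjusted p = 1.27e-08, limma) and 0.49 ± 0.12 for SFN (SE, adjusted p = 0.00184, limma). The YWHAH and YWHAZ differences had the opposite sign with positive control scaling, at 0.14 and 0.30. The SFN difference was 0.27 and not called when scaled by the reference genes (adjusted p = 0.16). It had an adjusted p of 0.053 without HCT116 siCTRL replicate 2.

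Under control siRNA the lines differed most in YWHAB. The siCTRL groups also differed in siRNA dose, 50 nM in HCT116 and 100 nM in PC3, and in positive control set. Line, dose and set cannot be told apart here. On the scale of all 24 libraries YWHAB had 273, 267 and 288 values in PC3 siCTRL, against 105, 104 and 96.7 in HCT116 siCTRL. It was 2.70-fold higher in PC3, at 1.43 ± 0.10 on the log2 scale (SE, adjusted p = 1.93e-10, limma). After siCARLo-1 v2&4 its PC3 level per 100 YWHAZ counts, 1.42, was below the 2.14 ± 0.03 of HCT116 siCTRL. YWHAH, YWHAE and YWHAQ were lower in PC3 by 0.45 ± 0.07, 0.31 ± 0.06 and 0.14 ± 0.05 (SE, log2 scale, adjusted p = 3.63e-05, 7.87e-05 and 0.020, limma), YWHAQ not being called with positive control scaling. SFN averaged 504 ± 11.4 in PC3 siCTRL and 572 ± 29.4 in HCT116 siCTRL (SD, n = 3 each), a log2 difference of -0.18 that did not pass the test (adjusted p = 0.063, limma). It passed without HCT116 siCTRL replicate 2 (adjusted p = 0.035). Over the TMM, reference gene and positive control scalings it ran from -0.33 to -0.17 and was called in 1 of 3. With the series-wide values, whose median over all genes was 0.84, SFN, YWHAE, YWHAH and YWHAQ were higher in PC3, by 0.66, 0.53, 0.40 and 0.71. In all, 4 of 7 genes were called with TMM scaling, with 68.5% of the panel called.

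Among the YWHA genes, levels were most alike for YWHAB and YWHAE. Over the 18 HCT116 libraries, Pearson's r between their log2 levels was 0.89, and YWHAH ran opposite to both, with r of -0.67 and -0.68. These points share a scaling, and libraries of 1 group share a treatment, so they are not independent. Of the 21 pairs of family members, 7 had r above 0.5 and 8 were negative. The 5 panel genes most like SFN were RELA (r = 0.80), ABL1 (0.73), CDC34 (0.69), RAC1 (0.66) and MAPK8 (0.66), and those least like it were PRKDC (-0.80), PIK3R1 (-0.79) and SMC1A (-0.79). The gene most like YWHAH was CDC25B (0.92), the gene most like YWHAG was E2F4 (0.88), and the gene most like YWHAZ was CDH1 (0.87). YWHAB and YWHAE had each other as most like, and YWHAQ had ARF1 (0.86).

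Genes known to respond to DNA damage were listed beside SFN, and CDKN1A, GADD45A and MDM2 were the 3 of 7 on the panel. CDKN1A, the p21 inhibitor of cyclin-dependent kinases, rose in all 5 HCT116 siCARLo groups, in an order unlike that of SFN. It averaged 1710 ± 47.5 counts in siCARLo-3, 1546 ± 168 in siCARLo-1 v3, 860 ± 24.3 in siCARLo-5, 707 ± 19.3 in siCARLo-4 and 448 ± 12.6 in siCARLo-7 v2, against 301 ± 18.5 in siCTRL (SD, n = 3 each). The group highest in SFN, siCARLo-7 v2, was thus the lowest siCARLo group in CDKN1A. MDM2, a ubiquitin ligase, rose in siCARLo-1 v3, siCARLo-3 and siCARLo-7 v2 by 0.46, 0.93 and 0.53 on the log2 scale and fell in siCARLo-5 by 0.50, where SFN rose. With positive controls the siCARLo-1 v3 and siCARLo-3 values of MDM2 were 0.30 and 0.31 and were not called. GADD45A, a growth arrest gene, rose by 0.53, 1.44 and 0.67 in the same 3 groups and did not pass the test in siCARLo-4 or siCARLo-5, at -0.07 and -0.14, although the siCARLo-5 value was called lower with positive control and reference gene scaling. In PC3 the 3 genes rose by 2.60, 2.49 and 0.80 for CDKN1A, GADD45A and MDM2, but MDM2 was -0.07 with positive control scaling.

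The list of 14-3-3 clients, proteins known to bind 14-3-3, had 10 of 14 genes on the panel, of which 9 were tested. Over all genes tested, 55.1% were called in siCARLo-5, 35.4% in siCARLo-4, 41% in siCARLo-1 v3, 52.2% in siCARLo-3 and 37.1% in siCARLo-7 v2. In siCARLo-5, 5 clients rose and 2 fell, with a median log2 fold change of 0.52. In siCARLo-4, 3 rose and 0 fell (median 0.29), in siCARLo-1 v3 and siCARLo-3 2 rose and 1 fell in each (medians -0.06 and 0.05), and in siCARLo-7 v2 2 rose and 2 fell (median -0.16). ABL1, a tyrosine kinase kept in the cytoplasm by 14-3-3, rose in all 5 groups, by 0.46 to 0.79 on the log2 scale, but with positive controls it was 0.36, -0.17 and 0.14 in siCARLo-1 v3, siCARLo-3 and siCARLo-5 and was called in none of these 3. Scaling moved the client counts: with positive controls 0 rose and 3 fell in siCARLo-5, and 1 rose and 6 fell in siCARLo-3. Over the panel, 8 genes rose and 82 fell with positive controls in siCARLo-5, and 11 rose and 118 fell in siCARLo-3. CDC25B, a phosphatase that activates CDK1, rose by 0.93 in siCARLo-4 and fell by 0.54 in siCARLo-3, as did YWHAH. In PC3, 4 clients rose and 3 fell (1 and 7 with positive controls). HDAC5 was at 1.98, CDC25B at -2.02 and CDC25C at -2.13 on the log2 scale, and with positive controls they were 1.13, -2.87 and -2.97. Over the panel in PC3, 72 of 179 genes rose and 64 fell (11 and 131 with positive controls).

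The G2 entry list had 5 of 6 genes on the panel, all tested. Of the 178 genes tested in HCT116, 30 rose and 43 fell in siCARLo-1 v3, and 37 and 29 in siCARLo-7 v2. In siCARLo-3, siCARLo-4 and siCARLo-5 the panel had 45, 32 and 45 genes up and 48, 31 and 53 down. In siCARLo-1 v3, 4 of the 5 listed genes fell. PLK1, a mitotic kinase, averaged 293 ± 94.3 counts there, against 581 ± 26.1 in siCTRL (SD, n = 3 each). CCNB2 and CCNB1, the B-type cyclins, fell by 0.79 and 0.73 and CDK1 by 0.50 on the log2 scale, and CDK1 was not called when scaled by the reference genes. In siCARLo-7 v2, where SFN was highest, 3 fell, by 0.41 to 0.51, PKMYT1, an inhibitory kinase of CDK1, rose by 0.67, and CDK1 was at -0.07. Scaled by the reference genes, none of these 3 decreases was called, and that of PLK1 was not called with positive controls either (adjusted p = 0.074, edgeR). In siCARLo-3, 1 of 5 changed, PKMYT1, which fell by 0.63. With positive controls all 5 were called lower there, as were 118 of the 178 genes tested. In siCARLo-4, 1 rose and 2 fell (1 and 0 with reference genes), and in siCARLo-5, 2 rose and 1 fell (0 and 2 with positive controls). In PC3 all 5 fell, with a median of -2.41, and all 5 were called lower under both other scalings. Over the panel in PC3, 64 of 179 genes fell, against 131 with positive controls and 43 with reference genes.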

How the data were processed

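RNA from HCT116 and PC3 cells was counted on the nCounter Virtual Cell Cycle Gene Set, with 189 endogenous, 6 positive and 8 negative probes. For 7 groups the authors deposited raw counts per probe. The deposited PC3 siCARLo-1 v2&4 table and the series-wide table hold score values that equal counts multiplied by a factor per library, inferred from their equal positive control sums; no label or header names the software. HCT116 was tested with edgeR 4.0.16 (quasi-likelihood, 18 libraries, TMM over endogenous genes, 178 genes above background in at least 3 libraries). PC3 was tested with limma 3.58.1 on log2(TMM-scaled value + 1), over 6 libraries and 179 genes, because one of its tables is not counts. Comparisons between lines used limma on the same log2 values over 24 libraries and 184 genes. Adjusted p-values are Benjamini-Hochberg over all genes tested, called under 0.05. Endogenous totals ran from 55893 to 236508 in raw tables, and replicate variation in HCT116 was 9.10% (common biological coefficient of variation), so precision rests on 3 libraries per group.

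All 7 members were tested in every comparison, and those left without a value did not pass the test with TMM scaling. Beside them, panel genes of the 3 lists and the most and least correlated genes (the 5 highest and 3 lowest for SFN) were named. The members, lists and tests were chosen with earlier results of these data known. The lists are described by counts, medians and values of single genes, without a test of a list as a set. Alternatives were DESeq2 1.42.0, limma for HCT116, positive control and reference gene scaling (6 genes), the series-wide values, another pseudocount (10), no low-count filter, a replicate block, merged siCTRL replicates 1 and 2, and leaving out each library. The fits were also run on simulated counts with the same spread for all genes. That setting lacked the scaled PC3 values and the outlying replicate 3 of siCARLo-1 v3, so it does not check the fits on these. Results for 1 panel gene are not reported here. Promoter windows came from RefSeq (GRCh38.p14) with Python 3.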

Additional observations from a re-analysis of the deposited data

Results flagged for a closer look

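For 4 of the 7 genes the siCARLo-1 effect in HCT116 and that in PC3 differed by an interaction test (limma, 24 libraries), with different siRNA versions and doses in the lines. The effect in HCT116 minus that in PC3 was 1.67 on the log2 scale for YWHAB (adjusted p = 1.27e-08). In the separate fits of the lines, the YWHAB change over siCTRL was -0.08 in HCT116 and -1.64 in PC3. The interaction value was 0.49 for SFN (adjusted p = 0.00184), -0.44 for YWHAH (adjusted p = 0.00172) and -0.28 for YWHAZ (adjusted p = 0.020). The SFN difference was 0.27 and lost its call when scaled by the reference genes (adjusted p = 0.16). The YWHAB difference was 1.45 to 2.25 over the TMM, reference gene and positive control scalings. The YWHAH and YWHAZ differences had the opposite sign with positive control scaling. The YWHAZ difference lost its call without HCT116 siCARLo-1 v3 replicate 1, PC3 siCARLo-1 v2&4 replicate 1 or PC3 siCARLo-1 v2&4 replicate 2 (adjusted p from 0.065 to 0.10). Positive control set and group cannot be told apart in this contrast.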

How the results depend on the processing

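Of 1302 recomputed single-gene results, 1183 stayed on their side of the threshold, 48 lost a call, 35 gained one and 36, called in at least 1 of the fits compared, changed direction. Within the 1183, 36 that were called in neither fit also changed sign, none above 0.19 in size with TMM scaling. The cause of the changes was not tested. By construction, another scaling multiplies all genes of a library by the same factor. On the log2 scale, positive control scaling gave -0.34 for YWHAQ and -0.30 for YWHAZ in siCARLo-3 and -0.16 for YWHAZ in siCARLo-5. For siCARLo-3 minus siCARLo-1 v3 it gave YWHAQ -0.26 and YWHAZ -0.068, the reference genes gave YWHAQ -0.12, and the series-wide values gave -0.26 and -0.074. For siCARLo-4 minus siCARLo-3, YWHAQ was 0.38 with positive controls and 0.38 with the series-wide values. For siCARLo-7 v2 minus siCARLo-5, positive controls gave YWHAE 0.042 and YWHAQ 0.18, the reference genes gave YWHAQ 0.054, and the series-wide values gave 0.043 and 0.18. In siCARLo-7 v2 over siCTRL the series-wide values gave YWHAG 0.72 and YWHAH 0.73. In PC3, positive controls gave SFN -0.22, YWHAH -0.52, YWHAQ -0.79 and YWHAZ -0.53, the series-wide values gave -0.52, -0.81, -1.09 and -0.82, and the reference genes gave YWHAE 0.037. For the difference between the siCARLo-1 effects, positive controls gave YWHAE 0.50, YWHAH 0.14 and YWHAZ 0.30, and the series-wide values gave 1.24, 0.88 and 1.04. For PC3 siCTRL minus HCT116 siCTRL the series-wide values gave SFN 0.66, YWHAE 0.53, YWHAH 0.40 and YWHAQ 0.71.

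Of 186 recomputed counts of called genes, 178 stayed within 1.5 times. The others were 1 in siCARLo-1 v3 with reference genes and 1 with the series-wide values, with positive controls 3 in siCARLo-7 v2, 2 in siCARLo-5 and 3 in siCARLo-4, and 7 with the series-wide values for both the siCARLo-1 difference and the lines under siCTRL. For siCARLo-4 minus siCARLo-1 v3 the count ran from 3 to 5 with 1 library left out. With group means removed, same-numbered HCT116 libraries of different groups correlated above 0.1 in 14 of 45 pairs. Libraries with other numbers did so in 33 of 90, so the numbers showed no sign of pairing there. In PC3 it was 1 of 3 and 2 of 6 pairs, too few to tell whether the numbers pair the samples. A replicate block gave 4 calls in siCARLo-7 v2, losing YWHAE (adjusted p = 0.059), 6 in siCARLo-5, 5 in siCARLo-4, 7 in siCARLo-3, 2 in siCARLo-1 v3, 5 in PC3, and 5 between the lines under siCTRL, adding SFN (adjusted p = 0.049). YWHAB, with as few as 72 raw counts, is the gene whose depth limits it most. The other scalings of the pathway lists were chosen after seeing the data.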

Other observations

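Ratios of YWHA genes within a library, which need no scaling between libraries, showed how the isoforms shifted against each other in HCT116. There were 6.93 ± 0.12 YWHAH counts per 100 YWHAZ counts in siCARLo-3, 11.0 ± 1.08 in siCARLo-7 v2, 11.5 ± 0.60 in siCARLo-5, 13.8 ± 2.90 in siCARLo-1 v3 and 15.9 ± 0.71 in siCARLo-4, against 15.1 ± 1.62 in siCTRL (SD, n = 3 each). The siCARLo-4 ratio overlapped siCTRL, although both genes were called higher in siCARLo-4. YWHAB per 100 YWHAZ counts was 3.68 ± 0.19 in siCARLo-3, 2.73 ± 0.32 in siCARLo-5 and 1.73 ± 0.06 in siCARLo-4, against 2.14 ± 0.03 in siCTRL (SD, n = 3 each). The siCARLo-4 libraries, at 1.67 to 1.77, lay below the siCTRL libraries, at 2.11 to 2.16, while YWHAB itself did not pass the test there. These ratios carry no test.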
